A study of Mus musculus with 12 samples.

Results

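The slow skeletal sarcomere isoforms are the contractile and calcium-handling proteins that type I muscle fibres use in place of their fast forms, and 9 of their genes were followed in the back skin of mice treated with MXD or N-CE. The members were Myh7, Myl2, Myl3, Tnni1, Tnnt1, Tnnc1, Atp2a2, Tpm3 and Myoz2, chosen by gene name alone. They had 17 probes among the 41174 of the array, and 9 of its 27373 gene names. Each probe of a gene was described apart, numbered in the order of the identifiers (Myh7 probe 1, Myh7 probe 2).

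Male C57BL/6 mice, 8 weeks old at purchase, had their backs shaved and then received 200 µL of a solution on the skin every day. The vehicle control (VC) was propylene glycol, ethanol and water, the positive control was 3% MXD (minoxidil), and the experimental group was 10% N-CE, a cell extract of the cactus Notocactus ottonis. RNA of the whole back skin of 6 mice was pooled for each group at 1, 2 and 3 weeks (1W, 2W, 3W), and the RNA of a treated pool met that of the same week's VC pool on 2 two-colour arrays with exchanged dyes. All groups had the shaved skin in common, and no untreated mice were compared here. Each group is 1 pool, so the SD over the 2 arrays of a comparison (n = 2) is technical and says nothing of the spread between mice. The MXD and N-CE comparisons of a week share their VC pool and their slide, so a VC pool that stood apart would move both, and week and slide cannot be told apart.

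A sarcomere shortens when myosin heads pull on thin filaments of actin, and each myosin heavy chain carries a regulatory and an essential light chain. Tropomyosin and the troponin complex (the calcium sensor C, the inhibitory subunit I and the tropomyosin-binding subunit T) open the thin filament when calcium is released, and the SERCA pump returns the calcium to the sarcoplasmic reticulum. Slow fibres use their own genes for most of these parts, several of which also serve the heart. The back skin of rodents carries a thin sheet of skeletal muscle, the panniculus carnosus, that consists largely of fast fibres. Atp2a2 and Tpm3 also give products in cells that are not muscle, so their signal in whole skin is not specific to slow fibres.

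The probes that carry the results are shown because 2 separate stretches of Tnni1 gave like values, while the calls of Tnnt1, Myl2, Myl3 and Myoz2 rest on 1 sequence each. The sequences are those of the array files, 5′ to 3′, positions are on mm9, and no base is set in capitals because none is singled out.

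Tnni1 probe 1, chr1:137704148-137705229, plus strand: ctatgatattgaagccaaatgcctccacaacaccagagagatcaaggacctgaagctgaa
Tnni1 probe 2, chr1:137705328-137706203, plus strand: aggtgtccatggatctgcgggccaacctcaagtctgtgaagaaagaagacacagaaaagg
Tnnc1, chr14:32023360-32023776, plus strand: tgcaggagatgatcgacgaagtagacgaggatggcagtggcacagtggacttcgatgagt
Tnnt1, chr7:4460086-4460145, minus strand: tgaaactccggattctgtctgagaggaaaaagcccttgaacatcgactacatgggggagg
Myl2, chr5:122553922-122554872, plus strand: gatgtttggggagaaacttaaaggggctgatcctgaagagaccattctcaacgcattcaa
Myl3 probe 1, chr9:110671632-110671926, plus strand: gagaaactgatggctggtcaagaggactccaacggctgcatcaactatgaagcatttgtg
Myoz2 probe 1, chr3:122709486-122716527, minus strand: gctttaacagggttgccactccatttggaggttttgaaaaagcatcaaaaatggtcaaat

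Each probe is 60 bases long. Where the interval on the genome is longer than the probe, as for Tnni1, Myl2, Myl3 probe 1, Tnnc1 and Myoz2 probe 1, the probe bridges a gap that the spliced transcript lacks. Both Myh7 probes lie on the minus strand of chr14, probe 1 at 55589531 to 55589590 and probe 2 at 55589526 to 55589585. They share 55 identical bases and both hold the polyadenylation signal AATAAA, so they count as 1 piece of evidence measured on 2 features. An annotation of mm9 was not used here, so exon and UTR status was not assigned.

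Over the 12 arrays the share of transcript spots well above background ran from 57.0% to 65.0% in Cy3, and from 61.3% to 69.6% in Cy5. No spot was saturated, and none of the member probes was marked as an outlier. The number of arrays limits the precision. The dye-swap pair of N-CE 2W did not repeat itself (r = -0.17 over the probes well above background), while r was between 0.26 and 0.71 in the other comparisons, so N-CE 2W values are the least reliable. A probe was called where each array of the pair had a P below 0.01 by the error model of the software, the directions matched, and the mean fold was above 1.5 or below 0.75. That P describes the spot, not the mice.

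The member probes did not move as a set. At MXD 1W 4 of 17 probes were down-regulated, against 0.765% of 41153 probes tested, and 0 were up-regulated, against 0.685%. At N-CE 1W 6 of 17 were down-regulated, against 1.49%, and 0 were up-regulated, against 0.292%. At MXD 2W 2 probes were up-regulated, against 4.04%, and 2 were down-regulated, against 5.82%. No member probe was called at N-CE 2W, where the background was 0.0682% up and 0.0511% down, at MXD 3W, with 0.144% up and 0.161% down, or at N-CE 3W, with 0.151% up and 0.139% down. The 14 calls fell on 8 probes of 6 genes, and Tnnc1, Atp2a2 and Tpm3 had none. Of the 17 probes, 8 (5 genes) were well above background in both groups in all 6 comparisons, and 3 (Myh7 probe 2, Myl3 probe 2 and Atp2a2 probe 2) were in none.

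The median log2 fold of the member probes measured in at least 1 group was -0.03 at MXD 1W (17 probes), -0.31 at N-CE 1W (15 probes), 0.16 at MXD 2W (12 probes), 0.02 at N-CE 2W (13 probes), 0.04 at MXD 3W (10 probes) and -0.03 at N-CE 3W (12 probes). Over all probes measured in the same way the median lay between -0.01 and 0.05. The median depends on the probes that enter. At N-CE 1W 9 of the 15 probes were above background in both groups, and the log2 ratios of the others entered without a bound. With the brightest probe of each gene it was -0.31 at MXD 2W, which turns its direction, and -0.76 at N-CE 1W, and over probes above background in both groups on both arrays it was -0.11 at N-CE 1W.

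**Figure D1:**
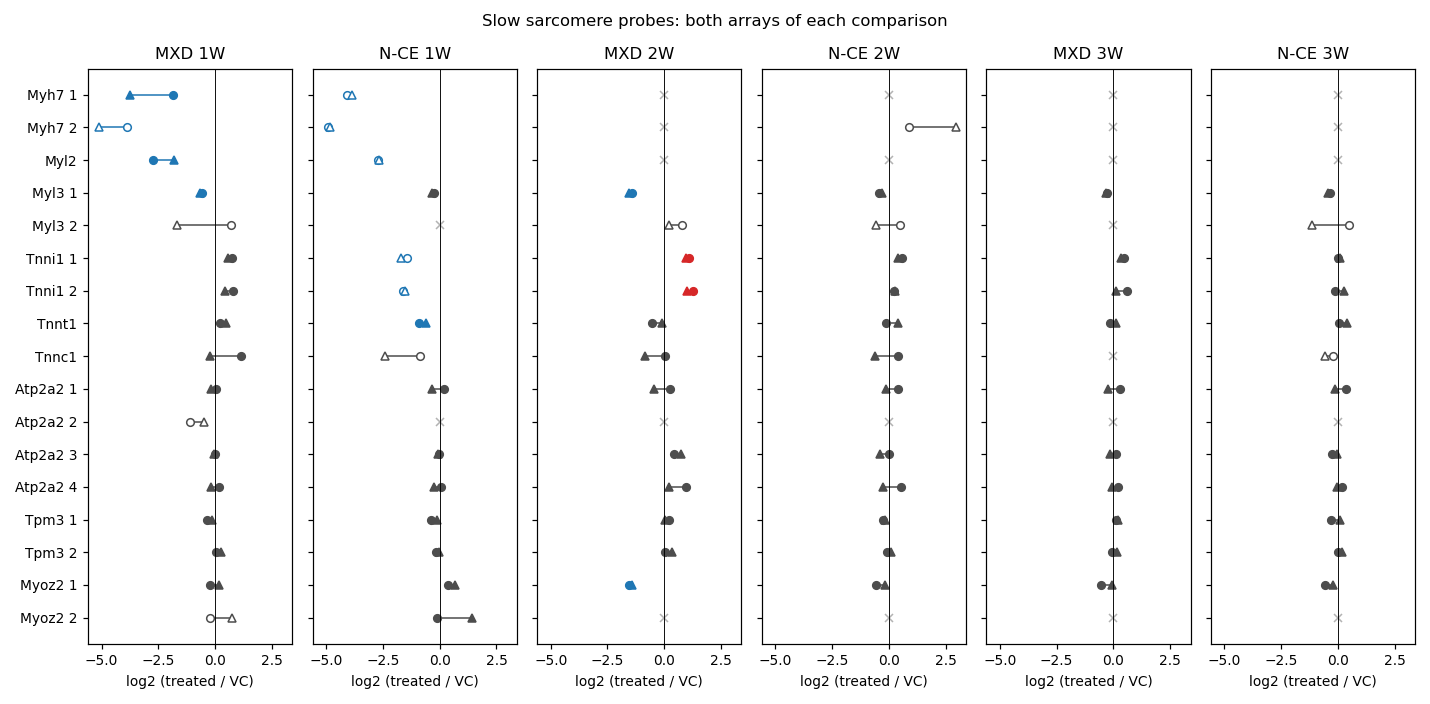
The log2 ratio of treated to VC of the 17 member probes in the 6 comparisons, with a circle for the array with the treated pool in Cy5 and a triangle for the array with the treated pool in Cy3. Blue is down-regulated, red is up-regulated and grey is not called, filled symbols were well above background in both groups, open symbols in 1 group only, and a cross marks probes above background in neither group. The calls lie at MXD 1W, N-CE 1W and MXD 2W, and only Tnni1 lies to the right of 0 among them.

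Myh7, the slow myosin heavy chain of type I fibres and of the ventricle, and Myl2, its regulatory light chain, were seen almost only in the VC pool at 1W. Myh7 probe 1 gave a normalized channel level (log2, after background correction and scaling across all arrays) of 8.02 to 8.15 in the 4 VC channels at 1W, and 5.94 to 6.92 in the 20 channels of all other pools. Myh7 probe 2 gave 7.54 to 7.87 in the VC pool at 1W, and 5.85 to 6.38 elsewhere. Myl2 gave 7.23 to 7.53 in the VC pool at 1W, and 5.90 to 6.61 elsewhere. The VC pool at 1W did not overlap with any other pool at these 3 probes. The share of all probes on the array with such a gap was not counted. Outside that pool Myh7 probe 1 was well above background in 1 of 20 channels, Myh7 probe 2 in 1 and Myl2 in 2.

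Both genes were called in both treatments at 1W, against a VC pool that the treatments share. For Myh7 probe 1 the log2 fold of MXD over VC at 1W was -1.84 on the array with MXD in Cy5 and -3.74 on the array with MXD in Cy3, with a mean of -2.79 ± 1.35 (SD, n = 2). The N-CE arrays gave -4.09 and -3.85, but N-CE was not well above background there, so Myh7 was at least 2.74-fold lower in N-CE than in VC. Such a bound sets the mean VC level against the higher of the dim channel's own level and the lowest level that counts as well above background, averaged over the 2 arrays. Myh7 probe 2 was at least 2.69-fold lower in MXD and at least 2.49-fold lower in N-CE. For Myl2 the MXD arrays gave log2 folds of -2.72 and -1.83 with a mean of -2.28 ± 0.63 (SD, n = 2), and in N-CE Myl2 was at least 1.79-fold lower. All these values were calls, and in each both arrays lay below 0. The sizes depend on the background correction: with normexp (offset 50) and loess the log2 folds in MXD were -1.32 and -1.42 for the Myh7 probes and -0.96 for Myl2, and all 3 stayed calls. MXD was well above background on 1 of 2 arrays for Myh7 probe 1 and on both for Myl2.

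At 2W and 3W Myl2 and Myh7 probe 1 were not well above background in VC or in either treated pool, so no fold is given. Myh7 probe 2 was well above background in N-CE on 1 of 2 arrays at 2W, where N-CE was at least 1.23-fold higher than VC without passing the call rule. The pattern was searched for over the whole array after these values had been seen. Of all probes, 31 were well above background in all 4 VC channels at 1W and in at most 2 of the other 20. By their VC level at 1W the 3 brightest of the 31 were Myh7 probe 1 (8.08), Myh7 probe 2 (7.65) and Myl2 (7.36), followed by Col19a1 (6.54). The VC mean at 1W exceeded the mean of the other channels by 1.79, 1.51 and 1.09 on the log2 scale for the 3 member probes and by 0.19 for Col19a1. The filter used these same channels, and its limit of 2 equals the count of Myl2. The rank and the differences thus describe the pattern and do not test it.

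The 31 probes also held a single dim probe each of Mypn (6.50), a sarcomere protein, and Myh3 (6.41), the embryonic myosin heavy chain. Their differences were 0.24 and 0.14. The paper lists Myh3 among the genes most up-regulated by MXD at 1W, so this probe does not stand for the gene. Myl3, the essential light chain of slow and ventricular myosin, did not stand apart by probe 1. That probe gave 13.10 to 13.44 in the VC channels at 1W and 12.14 to 14.33 elsewhere, so the groups overlapped. The other Myl3 probe gave 6.26 to 6.39 in those VC channels and 5.88 to 6.48 elsewhere. It was well above background in 0 of the 4 VC channels at 1W, so it cannot decide the question. Among the genes compared, Myl1, a fast light chain, had the folds nearest to those of probe 1 (root mean square difference 0.06). Whether probe 1 reports slow myosin in this tissue was not tested. Of the 8 cardiac markers, by the brightest probe of a gene, 7 were measured at MXD 1W and 6 at N-CE 1W. Over all 14 of their probes none was down-regulated at 1W in either treatment, and both probes of Myl4 were up-regulated in MXD. Tnnt2, cardiac troponin T, gave 0.55 ± 0.05 in MXD by its brighter probe, and its other probe was not well above background in either group. Myh6, the heavy chain of the atrium and of the adult mouse ventricle, was not well above background in either group in any comparison. The summed level of the cardiac markers was 1820 in MXD and 1590 in VC on the MXD arrays, and 1490 in N-CE and 1590 in VC on the N-CE arrays. The part that slow or cardiac muscle in the tissue of single mice had in the VC pool was not tested, and a single mouse of the pool cannot be told apart from all 6.

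**Figure D2:**
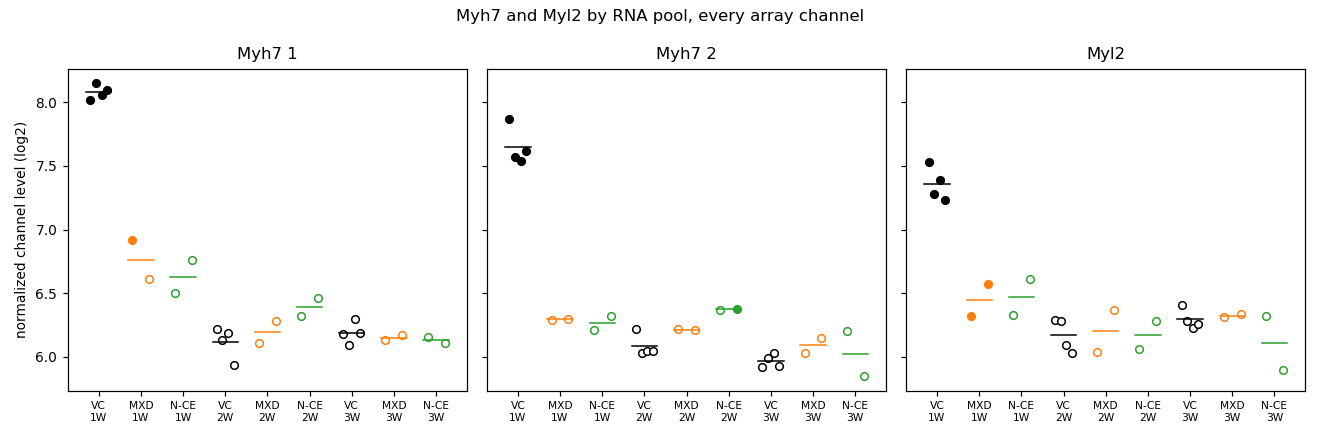
Normalized channel level (log2) of both Myh7 probes and of Myl2 in the 9 RNA pools, with 1 point for each array channel and a line at the mean. Filled points were well above background, and the 4 VC channels at 1W lie above every other channel for each of the 3 probes.

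Tnni1, the slow inhibitory troponin subunit, was down-regulated in N-CE at 1W, while its values in MXD lay above 0 without a call. Tnni1 probe 1 gave log2 folds of 0.75 and 0.56 in MXD at 1W, with a mean of 0.66 ± 0.13 (SD, n = 2), and -1.42 and -1.71 in N-CE, with a mean of -1.56 ± 0.20. Tnni1 probe 2, from another stretch of the transcript, gave 0.77 and 0.43 in MXD (mean 0.60 ± 0.24) and -1.60 and -1.54 in N-CE (mean -1.57 ± 0.04). Both arrays of MXD were above 0 and both of N-CE were below 0 for each probe. The N-CE values were calls and the MXD values were not. N-CE was not well above background on either array, so Tnni1 was at least 1.28-fold lower than VC by probe 1 and at least 1.16-fold lower by probe 2.

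At 2W Tnni1 was the only member up-regulated in MXD. Probe 1 gave log2 folds of 1.09 and 0.97 (mean 1.03 ± 0.09, a fold of 2.04), and probe 2 gave 1.26 and 1.01 (mean 1.14 ± 0.18, a fold of 2.20). In N-CE at 2W the means were 0.50 ± 0.12 and 0.24 ± 0.04, and neither was called. At 3W MXD gave 0.41 ± 0.08 and 0.37 ± 0.36, and N-CE gave 0.04 ± 0.06 and 0.07 ± 0.27, without a call. All 6 MXD arrays lay above 0 for both probes. Tnni1 was dim, with channel levels between 6.25 and 7.49, and all 4 Tnni1 calls were lost with another background correction: the same normexp and loess setting gave 0.44 and 0.42 in MXD at 2W, and -0.35 and -0.22 in N-CE at 1W.

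Tnnt1, the slow tropomyosin-binding subunit, was down-regulated in N-CE at 1W with log2 folds of -0.91 and -0.61 (mean -0.76 ± 0.21, a fold of 0.59). MXD at 1W gave 0.20 and 0.48 (mean 0.34 ± 0.20) and was not called. In the other 4 comparisons the Tnnt1 mean was between -0.31 and 0.22, with arrays on both sides of 0 in 2 of them. Tnnt1 was brighter at 1W than later in all 3 groups. VC gave 8.43 to 8.68 at 1W, 7.05 to 7.50 at 2W and 7.26 to 7.58 at 3W. MXD gave 8.61 to 9.01, 7.03 to 7.14 and 7.51 to 7.64, and N-CE gave 7.97 to 8.16, 7.28 to 7.34 and 7.49 to 7.61. The weeks come from different slides.

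Tnnc1, the calcium-binding subunit of slow and cardiac troponin, depended on the dye. In MXD at 1W it gave 1.16 with MXD in Cy5 and -0.23 with MXD in Cy3, and in N-CE at 1W -0.85 and -2.39. None of the 6 comparisons was called, and N-CE at 1W was not well above background, with Tnnc1 at least 1.23-fold lower than VC.

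Setting arrays of the same dye orientation against each other removes such a probe-specific dye difference, and the slow troponins then showed like values on both arrays at 1W. The log2 fold of MXD minus that of N-CE was 2.18 and 2.27 for Tnni1 probe 1 (mean 2.22 ± 0.06) and 2.37 and 1.97 for probe 2 (mean 2.17 ± 0.28). It was 2.01 and 2.16 for Tnnc1 (mean 2.09 ± 0.10) and 1.1 and 1.09 for Tnnt1 (mean 1.1 ± 0.01). Myl3 probe 1 gave -0.29 and -0.32, Myoz2 probe 1 gave -0.60 and -0.52, and Tpm3 probe 2 gave 0.21 and 0.32. For Tnni1 and Tnnc1 the N-CE channel was not well above background, so these differences hold a dim channel and are not measured folds. At 2W the difference was 0.53 ± 0.03 and 0.89 ± 0.22 for Tnni1, -0.44 ± 0.06 for Tnnt1 and -0.29 ± 0.11 for Tnnc1. Of these only Tnni1 stayed above 0. Its mean channel levels at 2W were 7.19 in MXD and 6.81 in N-CE by probe 1, but 7.12 and 7.25 by probe 2. The level of the shared VC pool on the MXD arrays minus that on the N-CE arrays was 0.11 for probe 1 and -0.44 for probe 2. The 2 probes thus did not give like levels. With 1 pool a group, no test of the difference is possible.

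**Figure D3:**
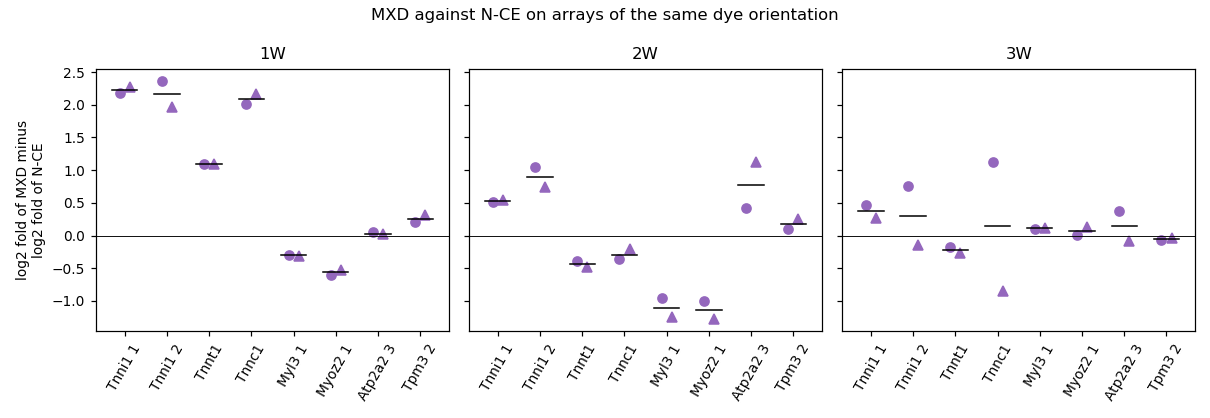
The log2 fold of MXD minus that of N-CE at each week for 8 member probes, with a circle for the arrays with the treated pool in Cy5, a triangle for those with the treated pool in Cy3 and a line at the mean. At 1W Tnni1, Tnnt1 and Tnnc1 lie between 1.09 and 2.37 on both pairs of arrays, and at 2W Myl3 probe 1 and Myoz2 probe 1 lie between -0.96 and -1.28.

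Myl3 and Myoz2 were each down-regulated by probe 1 in MXD at 2W. Myl3 probe 1, the brightest member of a myosin, gave log2 folds of -1.41 and -1.55 in MXD at 2W, with a mean of -1.48 ± 0.10 (SD, n = 2) and a fold of 0.359. It was also called in MXD at 1W, with -0.57 and -0.67 (mean -0.62 ± 0.07, a fold of 0.652), but not at 3W (-0.29 ± 0.03). Without a call, N-CE gave means of -0.31 ± 0.06 (1W), -0.38 ± 0.10 (2W) and -0.40 ± 0.05 (3W) for Myl3 probe 1. All 12 arrays lay below 0. Myl3 probe 2, from another stretch of the transcript, had channel levels of 5.88 to 6.48, close to background, and its 2 arrays disagreed in sign in 5 of 6 comparisons.

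Myoz2, a Z-disc protein that binds calcineurin in slow fibres and heart, gave -1.57 and -1.44 in MXD at 2W by probe 1 (mean -1.51 ± 0.09, a fold of 0.352). At 1W MXD gave -0.03 ± 0.28 and N-CE 0.52 ± 0.22, and the later comparisons gave -0.36 ± 0.29 in N-CE at 2W, -0.32 ± 0.34 in MXD at 3W and -0.39 ± 0.26 in N-CE at 3W. None of these was called. Myl3 probe 1 thus fell at 1W and 2W in MXD, and Myoz2 probe 1 at 2W. Myoz2 probe 2 was dim, was well above background in both groups at N-CE 1W only, and had no call.

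General skeletal muscle markers moved with these values in MXD at 2W. All 8 of them were down-regulated, with a median log2 fold of -1.46, and their summed level was 53000 in MXD and 151000 in VC. Among them Ttn gave -1.80 ± 0.51, Actn2 -1.63 ± 0.28 and Eno3 -1.62 ± 0.41. In bulk skin a smaller share of muscle and less RNA per fibre cannot be told apart. At MXD 1W 6 of 8 were down-regulated (median -0.71), and at MXD 3W 2 of 8 (median -0.49). In N-CE the medians were -0.07 (1W), -0.48 (2W) and -0.37 (3W), and none of the 8 was called.

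Atp2a2, the SERCA2 pump of slow fibres and of most other cells, and Tpm3, slow tropomyosin in muscle, had no call on any of their 6 probes. Tpm3 probe 2 was the brightest member probe, with channel levels of 13.71 to 14.45, and its mean log2 folds lay between -0.11 and 0.20. Tpm3 probe 1 lay between -0.26 and 0.17. Atp2a2 probe 4 gave 0.95 and 0.19 in MXD at 2W (mean 0.57 ± 0.54), and probe 3 gave 0.43 and 0.74 (mean 0.59 ± 0.22), while probe 1 gave 0.25 and -0.43 (mean -0.09 ± 0.48). The Atp2a2 probes thus did not share a direction in MXD at 2W. In the other 5 comparisons probes 1, 3 and 4 had means between -0.19 and 0.14. Atp2a2 probes 1 and 3 share an accession, while probes 2 and 4 each carry another. Probe 2 was not well above background in both groups anywhere.

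The fast counterparts moved more uniformly than the slow members on the same arrays at MXD 2W. At MXD 2W all 12 of the 13 fast genes that were measured were down-regulated, with a median log2 fold of -1.37, against 5.82% of all probes. Myh1, a fast myosin heavy chain, gave -1.55 ± 0.21, Tnnc2, the fast troponin C, gave -1.53 ± 0.01, and Mylpf, the fast regulatory light chain, gave -1.5 ± 0.03. Of the slow members, by the brightest probe of a gene, 7 were measured, 2 were down-regulated and 1 was up-regulated, with a median of -0.31. Within arrays the slow form minus its fast counterpart was 2.49 ± 0.09 and 2.60 ± 0.01 for the Tnni1 probes over Tnni2, and 1.91 ± 0.25 for Atp2a2 probe 4 over Atp2a1, with 1.25 ± 0.31 for probe 1 and 1.93 ± 1.01 for probe 3. It was 1.58 ± 0.51 for Tpm3 probe 2 over Tpm1, 0.91 ± 0.76 for Tnnt1 over Tnnt3, and 1.15 ± 0.60 for Tnnc1 over Tnnc2. It was -0.03 ± 0.17 for Myl3 probe 1 over Myl1 and -0.15 ± 0.54 for Myoz2 probe 1 over Myoz1. The differences of Tnni1, of Atp2a2 probes 1 and 4 and of Tpm3 exceeded 3 times their SD over the 2 arrays, and those of Atp2a2 probe 3, Tnnt1, Tnnc1, Myl3 and Myoz2 did not. That SD is technical, so this sorts the pairs by how the arrays repeated and is no test. The Tnni1 calls at MXD 2W were lost with normexp and loess, and the signal of Atp2a2 and Tpm3 in whole skin is not specific to slow fibres.

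At N-CE 1W none of the 12 fast genes measured was called (median -0.06). By their brightest probe 4 of 9 slow genes were down-regulated, with a median of -0.76, against 1.49% of all probes. Of these 4, only Tnnt1 was well above background in both groups. Myh7 and Myl2 were down-regulated in MXD as well, against the shared VC pool, and the Tnni1 call was lost with normexp and loess. Among slow forms well above background in both groups, Tnnt1 minus Tnnt3 was -0.58 ± 0.19, Atp2a2 probe 4 minus Atp2a1 -0.21 ± 0.01, Myl3 probe 1 minus Myl1 0.09 ± 0.10, Tpm3 probe 2 minus Tpm1 0.16 ± 0.18, and Myoz2 probe 1 minus Myoz1 0.41 ± 0.29. The slow forms thus lay on both sides of their counterparts. Tnni2 has no value at 1W because its brightest probe was marked as an outlier on 1 array or more. At MXD 1W 5 fast genes were down-regulated (median -0.59) and Myh2, the heavy chain of type IIA fibres, was up-regulated at 0.79 ± 0.06. At N-CE 2W, MXD 3W and N-CE 3W the fast medians were -0.41, -0.44 and -0.36 with 1, 2 and 1 genes down-regulated.

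**Figure D4:**
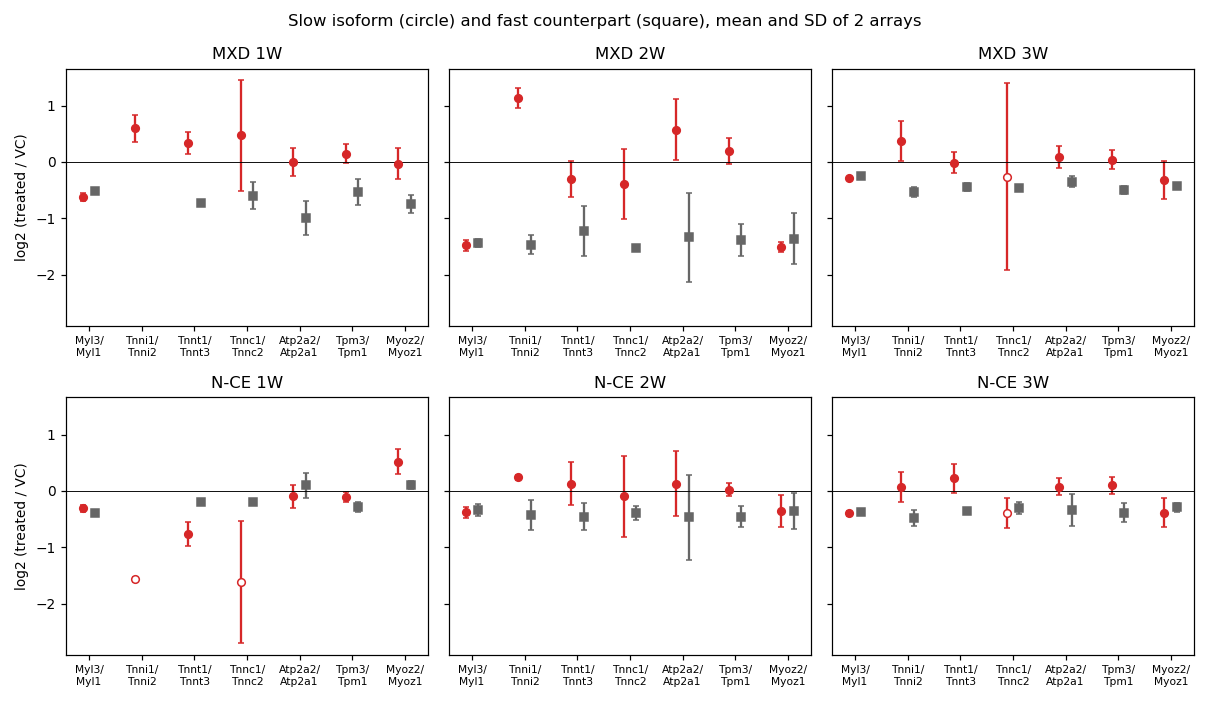
Log2 ratio of treated to VC of 7 slow members (circles) and of their fast counterparts (squares), as the mean and SD of the 2 arrays, in the 6 comparisons. Open circles were well above background in 1 group only, and Tnni2 is not drawn at 1W. At MXD 2W every fast gene shown lies below -1 while Tnni1, Atp2a2 and Tpm3 lie above 0, and Myl3 and Myoz2 lie beside their counterparts.

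The list of other slow fibre genes moved with the fast genes at MXD 2W, while Tnni1 did not. Of 14 such genes on the array, 10 of 14 measured were down-regulated at MXD 2W (median -1.34), against 5.82% of all probes. Among them were Sln, a small SERCA inhibitor, at -1.76 ± 0.02, and Myot, a Z-disc protein, at -1.68 ± 0.09. Ckmt2, the sarcomeric mitochondrial creatine kinase, gave -1.56 ± 0.09. Sln, Myot and Ckmt2 had VC levels of 11.34, 13.49 and 14.12 there, while Myh7 was not well above background. Whether the 14 genes report slow fibres in this tissue was not tested. At MXD 1W 3 were down-regulated and 1 up-regulated (median -0.31), at MXD 3W 1 was down-regulated (median -0.45), and at N-CE 3W 3 were (median -0.46). At N-CE 1W and N-CE 2W none was called (medians 0.00 and -0.30). Of the regulators of slow fibre genes 8 of 14 measured were down-regulated at MXD 2W, with a median of -0.97, and none was up-regulated. Sox6, a transcription factor that favours the fast programme, gave -1.25 ± 0.04, and Prox1, which favours the slow one, gave -1.28 ± 0.79. At MXD 1W 1 regulator was down-regulated, and none was called in the other 4 comparisons.

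Markers of other skin cell types were measured for the same arrays. At MXD 2W 3 of 6 dermal fibroblast markers (median -0.84), 3 of 6 adipocyte markers (median -0.53), 2 of 5 keratinocyte markers (median -0.05) and 3 of 7 smooth muscle markers (median 0.18) were down-regulated. Over all probes the share down-regulated was 5.82%. The most lowered gene of each list was Lum at -1.13 ± 0.12, Plin1 at -1.08 ± 0.23, Krt10 at -1.43 ± 0.39 and Lmod1 at -1.18 ± 0.31. Above 0 lay 4 of 7 smooth muscle markers, 2 of 5 keratinocyte markers and no fibroblast or adipocyte marker. The summed levels of the lists in MXD and VC were 135000 and 242000 for fibroblasts, and 59300 and 76200 for adipocytes. They were 143000 and 181000 for keratinocytes, and 25500 and 23100 for smooth muscle. No marker of these 4 lists was called at N-CE 1W or MXD 1W, where the slow members had 10 of their calls. Their part in the results was not tested.

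The likeness of other genes was measured as the root mean square difference of the log2 folds over the 6 comparisons. The median profile of the 8 member probes measured throughout ran between -0.11 and 0.02, and among 15442 genes outside the muscle lists the nearest were Polr2e (0.02), Tbc1d10b (0.03), Tuba4a, Wasf2, Mrps34, Crtap, Ahsa1, Dpcd, Zcchc17 and Ndufaf4 (0.04 each). A profile so close to 0 describes none of the members that were called, so likeness was also taken, after the values had been seen, to single probes over 16287 genes. The nearest to Myl3 probe 1 were Myl1 (0.06), Mylpf (0.08), Ank1, Tnnc2, Tpm1 and Rxrg (0.10 each), of which Myl1, Mylpf, Tnnc2 and Tpm1 are in the fast list. The nearest to Tnni1 probe 1 were Soga2 (0.14), Aurkb, Mycbpap and Cldn17 (0.16 each) and Parpbp (0.17), none of them in a muscle list. Aurkb gave 0.48 at MXD 1W, -1.59 at N-CE 1W and 0.96 at MXD 2W, and Cldn17 gave 0.68, -1.83 and 1.05. The nearest to Myoz2 probe 1 were Mrgprb2 (0.07), Herc6 (0.09), Tspan8 (0.09) and Trim63 (0.10). The nearest to Tnnt1 were Cacna1g (0.13), AK036012 and Msantd1 (0.14 each).

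With the 3 weeks standing in for replicates, no probe passed limma's moderated test after Benjamini-Hochberg adjustment for MXD (0% of 40820 probes), for N-CE (0%) or for MXD minus N-CE (0%). At an unadjusted p under 0.05 there were 4220, 1013 and 1379 probes, and 1, 0 and 0 of the 17 member probes. The 1 member was Myl3 probe 1 in MXD, with a mean log2 fold of -0.80 and a 95% interval of -1.38 to -0.21 (limma adjusted p = 0.471). Tnni1 gave 0.70 in MXD by both probes, with intervals of -0.38 to 1.77 and -0.32 to 1.72, and 1.04 and 1.12 for MXD minus N-CE, with intervals of -0.48 to 2.56 and -0.32 to 2.57 (limma adjusted p = 0.835 for both differences). For Tpm3 probe 2 the interval was narrow, at -0.02 to 0.28 in MXD and -0.14 to 0.15 in N-CE. For Myh7 probe 1 it ran from -4.27 to 2.42 in MXD, with a fold at 1W and no level well above background at 2W and 3W.

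The promoters of 4 called genes are shown. Myh7 and Myl2 were down-regulated together at 1W in both treatments, and Myl3 and Myoz2 in MXD at 2W. These were not exclusive pairs. At 1W Myl3 was also down-regulated in MXD, and Tnni1 and Tnnt1 in N-CE. In MXD at 2W Tnni1 was up-regulated. The 250 bases before the annotated start come from RefSeq on GRCm38.p6, another build than that of the probes, and 8 of the 9 members were in the table, with 12 promoters. Capitals mark matches, on either strand, to an E-box (CANNTG), to the TATA box (TATAAA), to the MCAT element (CATTCC), to a MEF2 site or to a CArG box.

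Myh7, chr14:54994627-54994876, minus strand: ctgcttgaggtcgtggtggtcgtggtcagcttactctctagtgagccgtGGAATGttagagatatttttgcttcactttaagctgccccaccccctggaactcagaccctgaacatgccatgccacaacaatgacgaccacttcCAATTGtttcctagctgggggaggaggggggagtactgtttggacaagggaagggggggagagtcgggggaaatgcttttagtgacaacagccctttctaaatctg
Myl2, chr5:122092474-122092723, plus strand: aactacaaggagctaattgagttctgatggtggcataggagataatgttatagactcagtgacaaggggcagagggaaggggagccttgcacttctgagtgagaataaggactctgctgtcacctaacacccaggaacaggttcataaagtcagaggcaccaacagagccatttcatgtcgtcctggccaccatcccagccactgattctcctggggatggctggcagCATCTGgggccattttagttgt
Myl3, chr9:110763428-110763677, plus strand: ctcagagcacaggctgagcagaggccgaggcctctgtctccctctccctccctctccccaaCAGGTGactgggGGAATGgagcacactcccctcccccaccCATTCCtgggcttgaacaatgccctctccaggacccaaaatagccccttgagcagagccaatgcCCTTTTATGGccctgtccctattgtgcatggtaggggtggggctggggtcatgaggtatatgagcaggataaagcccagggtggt
Myoz2, chr3:123034988-123035237, minus strand: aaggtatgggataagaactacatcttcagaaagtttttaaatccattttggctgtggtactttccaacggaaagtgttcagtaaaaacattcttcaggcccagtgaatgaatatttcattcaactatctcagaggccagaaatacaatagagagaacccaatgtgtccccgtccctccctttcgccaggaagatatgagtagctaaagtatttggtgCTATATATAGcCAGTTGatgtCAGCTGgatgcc

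The motifs were counted over the whole window of 250 bases before to 50 after the start. An E-box was in a promoter of 8 of 8 members and in 72.3% of all 32851 promoters, so its presence does not set the members apart. The MCAT element was in 3 of 8 members (Myh7, Myl3 and Tnnc1) and in 14.7% of all promoters, and TATAAA in 2 of 8 (Myl2 and Tnnt1) and in 13.6%. A MEF2 site was in Myoz2 alone, at -33 from the start, and in 3.19% of all promoters, and a CArG box in Myl3 alone, at -85 from the start, and in 1.63%. Tnni1 held only E-boxes in its 2 promoters. Myh7 and Myl2 shared no motif other than the E-box in the windows shown, nor did Myl3 and Myoz2. Myh7 and Myl3, both down-regulated in MXD at 1W, each held the MCAT element there. These matches describe the letters of the windows.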

How the data were processed

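Whole back skin RNA of pooled mice was measured on 12 Agilent two-colour arrays with dye swap, in 6 comparisons of a treated pool with the VC pool of its week. The deposited log ratio is log10 of Cy5 over Cy3 after background subtraction and dye normalization by the authors' software, Agilent Feature Extraction (12.0.3.1 per the file headers, 11.0.1.1 per the submitters' processing notes). It is set to 0 where neither channel exceeds background. The deposited p-value of a spot comes from the error model of that software. Raw and processed intensity values of both channels are deposited, with flags. At all 43379 transcript spots the deposited matrix values matched log10 of Cy5 over Cy3 processed intensity within 1e-05. Probe positions are on mm9, and 15 of 17 member probes had an accession in the RefSeq table, each with the same symbol.

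Control spots and outlier spots were left out, log ratios were given the sign of treated over VC and put on the log2 scale, spots of a probe were averaged, and the fold is the geometric mean over the dye swap. A group was measured where well above background on at least 1 of 2 arrays. Where 1 group was not, a bound is given for the single probe. Medians, slow minus fast differences, likeness to single probes and limma fits kept the log2 ratio of such probes. Channel levels came from normexp (offset 50), loess and Aquantile over all arrays, and on this log2 scale the offset alone is 5.64, so changes of dim probes are compressed. Gene lists used the brightest probe of a gene. The software was R 4.3.3 (limma 3.58.1) and Python 3.11.15 (pandas 2.3.3, numpy 2.4.6). The call rule and the limma fit were tested on simulated data. Within a week no test across samples is possible. The members, the gene lists and the tests were chosen with earlier results of these data known.

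Named were all members, their fast counterparts, at most 3 called genes of each other list by size of fold, and the 10 genes nearest to the median profile of the members. Of the genes so chosen, 1 is not reported here. Genes named for the VC pattern at 1W, or for likeness to a single probe, were chosen after their values were seen. Alternatives were the absence of the P threshold, symmetric folds, normexp with loess, either array alone, arithmetic means, brighter probes only, 1 probe a gene, outlier spots kept, the series matrix, each week left out and the slide as a random block.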

Additional observations from a re-analysis of the deposited data

Results flagged for a closer look

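At 1W both MXD arrays lay above 0 and both N-CE arrays below 0 for Tnni1 probe 1 (mean log2 folds of 0.66 and -1.56), Tnni1 probe 2 (0.60 and -1.57), Tnnt1 (0.34 and -0.76) and Tpm3 probe 2 (0.15 and -0.11). At 2W the same held for Tpm3 probe 1 (0.12 in MXD and -0.22 in N-CE). The differences within a week were not tested, since each group is 1 pool, and both share the VC pool of the week. Over the 3 weeks limma called none of these probes for MXD minus N-CE, with an adjusted p of 0.835 for Tnni1 and Tpm3 and 0.925 for Tnnt1. The Tpm3 values lie within the fold thresholds on both sides.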

How the results depend on the processing

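All 14 called member values kept their direction and their call with no P threshold, with symmetric folds, with either array alone, with the arithmetic mean, with outlier spots kept and with the series matrix. Normexp with loess kept 10 and lost the 4 Tnni1 calls, which leaves 0 probes up-regulated at MXD 2W. Restricted to probes above background in both groups on both arrays, 7 of 14 values could be given and kept their calls, with 2 probes down-regulated at MXD 1W and 1 at N-CE 1W. With 1 probe a gene, MXD 2W had 1 up-regulated. Without the P threshold 2 probes were up-regulated at MXD 1W and 3 at N-CE 2W. The array with the treated pool in Cy5 alone gave 3 up-regulated at MXD 1W and 1 down-regulated at N-CE 2W, MXD 3W and N-CE 3W each. The array with Cy3 alone gave 2 up-regulated at N-CE 1W and at N-CE 2W.

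The medians of the member probes moved by more than the SD of the 2 array medians as follows. At MXD 1W the median was -0.18 on the Cy3 array alone. At N-CE 1W it was -0.22 with normexp, -0.38 and -0.35 on the Cy5 and Cy3 arrays alone, -0.11 over bright probes and -0.76 with 1 probe a gene. At MXD 2W it was 0.05 with normexp and -0.31 with 1 probe a gene, which turns its direction. At MXD 3W it was 0.11 on the Cy5 array alone. At N-CE 3W it was 0.02 with normexp, -0.06 and -0.05 on the Cy5 and Cy3 arrays alone, 0.05 over bright probes and 0.07 with 1 probe a gene. The cause was not tested. The limma fits over weeks called 0 member probes without each week in turn, with normexp, over bright probes and with the slide as a random block (correlation 0.13), and the lowest adjusted p of a member ranged from 0.273 to 1. A replicate number could not serve as a block because every pool carries the number 1. MXD and N-CE were matched by week and dye orientation instead.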

Other observations

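Within MXD, 3 muscle genes outside the slow members passed the call rule in opposite directions at 1W and 2W. Sln, the SERCA inhibitor, gave log2 folds of 1.22 ± 0.10 at 1W and -1.76 ± 0.02 at 2W (SD, n = 2 arrays). Myl4, the atrial and embryonic essential light chain, gave 0.88 ± 0.15 and -0.59 ± 0.02, and Myh2, the type IIA heavy chain, gave 0.79 ± 0.06 and -1.22 ± 0.24. In N-CE these genes gave 0.04 ± 0.17, 0.09 ± 0.01 and 0.42 ± 0.00 at 1W and -0.24 ± 0.01, -0.20 ± 0.12 and -0.24 ± 0.29 at 2W, without a call. They were singled out after their values had been seen, and the weeks lie on different slides.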
